A study of Mus musculus with 12 samples.

Results

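The genes described here are 34 mouse genes of cholesterol metabolism, chosen by name for their known roles. Earlier results of these data were known when they were chosen. They comprise 19 enzymes of cholesterol synthesis, 6 genes that sense or move sterols inside the cell, 5 target genes of the liver X receptors (LXR) that export cholesterol or limit its uptake, and 4 genes of the LXR receptor, cholesterol esterification and high-density lipoprotein (HDL). All 34 were found once in the deposited tables and all 34 passed the filter on low values, among 12637 genes tested and 22381 with values. Gene expression was measured by RNA sequencing of whole livers; the mice were C57BL/6 females. The labels state a high-fat, high-sugar diet of 14 weeks for every library, which is used to model steatohepatitis, an inflamed fatty liver. Curcumin, a plant polyphenol, or calcitriol, the active hormone form of vitamin D, was given intravenously in liposomes in week 12 and again in week 13, and the liver was collected 2 weeks past injection 1. The 12 libraries form 4 groups of 3, namely curcumin liposomes on HFHS diet, calcitriol liposomes on HFHS diet, untreated HFHS, and a group titled CNT.

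The CNT labels carry the HFHS diet text too and do not say how CNT and HFHS mice differed, so the group keeps its title here. Doses of curcumin and calcitriol are not given in the sources used here. A group given empty liposomes was not analysed here, so a compound's effect and that of its injection or liposome cannot be told apart. Nothing in the titles states that replicates were separate animals, and p-values therefore measure only the spread between these libraries.

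Liver cells make cholesterol from acetyl-CoA through the mevalonate pathway, then through squalene and lanosterol. When sterols in the endoplasmic reticulum run low, the escort protein Scap carries the transcription factor SREBP2, the product of Srebf2, to the Golgi, where it is cut and released to switch on the synthesis genes, while Insig proteins hold it back when sterols are plentiful. Oxysterols, made when cholesterol is abundant, activate LXR, which raises the transporters Abca1, Abcg1, Abcg5 and Abcg8 and the ubiquitin ligase Mylip, which marks lipoprotein receptors for degradation.

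All values are deposited log2 levels. They carry no counts, which leaves sequencing depth unknown and counting error without an estimate. Levels are not scaled to gene length and are compared between libraries only, never between genes. The 3 HFHS libraries stood further from each other than those of the other groups. Over the 34 genes the median SD within a group was 0.112 with curcumin, 0.115 with calcitriol, 0.220 in HFHS and 0.138 in CNT. On the first principal component of all tested genes, HFHS replicates 1 and 3 lay at -32.8 and -28.4, and the other 10 libraries between 0.396 and 14.4.

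Marker genes for the labelled tissue and for other cells it could hold all had values, with no marker at 0 in all libraries. Such a value does not show detection in a given library, since 0 identifiers were at 0 in some libraries only. All 6 hepatocyte markers passed the filter, and their summed level (log2 of the sum) was 20.66 to 20.98 with curcumin, 20.04 to 20.69 with calcitriol, 20.42 to 20.76 in HFHS and 20.63 to 20.97 in CNT. Alb makes up most of that sum. As a mean deviation from the gene means, the 6 markers stood at -0.43, 0.05 and -0.30 in HFHS replicates 1, 2 and 3. The range was 0.045 to 0.25 with curcumin, -0.20 to 0.04 with calcitriol and 0.08 to 0.25 in CNT. In HFHS minus CNT all 6 were below 0 (median -0.31), where 52.1% of all tested genes were. In curcumin minus HFHS all 6 were above 0 (median 0.33), and in calcitriol minus HFHS 4 were (median 0.20). The 6 macrophage markers summed to 13.21 and 12.74 in HFHS replicates 1 and 3 and to 12.12 in HFHS replicate 2. In the other groups the macrophage sum was 12.01 to 12.29 with curcumin, 11.98 to 12.26 with calcitriol and 11.54 to 12.12 in CNT. The same 2 HFHS libraries had high sums of the 5 stellate cell and matrix markers, 13.49 and 13.32, against 12.17 in HFHS replicate 2. Those of the other groups were 12.34 to 12.42 with curcumin, 12.16 to 12.27 with calcitriol and 11.90 to 12.12 in CNT. Only 1 of 5 adipocyte markers passed the filter, and their sum was 9.27 in HFHS replicate 3 and at most 5.28 in any other library. In whole-liver data, fewer cells of a type and less RNA per cell cannot be told apart.

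**Figure D1:**
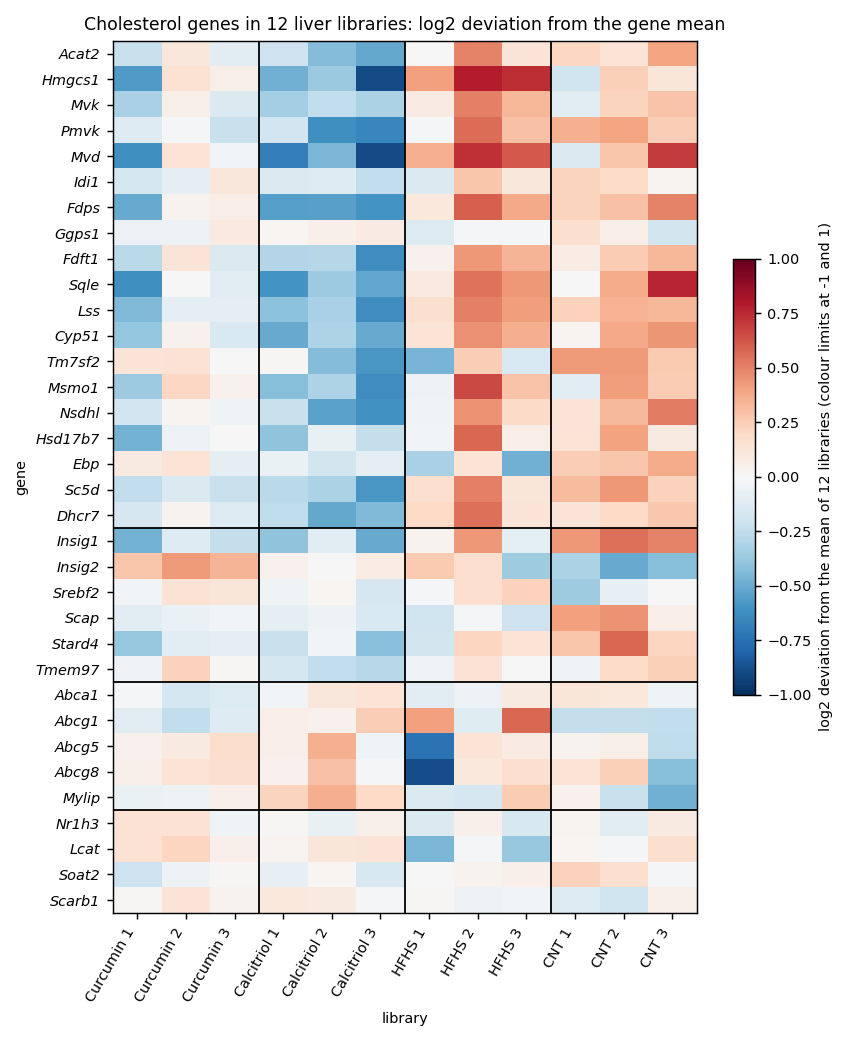
Each row is a gene and each column a liver library; colour gives the log2 deviation of that library from the gene's mean over 12 libraries, with the colour scale ending at -1 and 1. Black lines separate, from the top, the 19 synthesis enzymes, 6 sterol sensing and transport genes, 5 LXR target genes and 4 genes of the LXR receptor, esterification and HDL; the calcitriol columns are blue through most of the synthesis rows, and HFHS replicate 2 is red in most of them.

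Calcitriol liposome livers were compared with untreated HFHS livers. Of the 34 genes, 12 fell and 0 rose at an adjusted p under 0.05 (limma, Benjamini-Hochberg over all 12637 genes), where 2.21% of all tested genes were called and 1.23% were called lower. All 12 were synthesis enzymes, so 12 of the 19 enzymes fell. The median log2 difference of the 19 enzymes was -0.67, beside -0.00 for all genes tested. In 15 of the 19 enzymes every calcitriol library lay below every HFHS library, against 11.8% of all tested genes.

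The first steps turn acetyl-CoA into mevalonate and then into isoprenoid units. Hmgcs1, which encodes the cytosolic synthase of HMG-CoA, the precursor of mevalonate, stood at 11.68, 11.79 and 11.26 in calcitriol livers and at 12.57, 12.94 and 12.90 in HFHS livers. Its log2 difference was -1.23 ± 0.20 (SE, adjusted p = 0.021), or 0.427 times the HFHS level, and the groups did not overlap. Mvd, the mevalonate pyrophosphate decarboxylase, had levels of 7.19, 7.41 and 6.97 in calcitriol livers and of 8.22, 8.60 and 8.48 in HFHS livers. Its log2 difference of -1.24 ± 0.23 (adjusted p = 0.0305) was the lowest of the 34 genes in this comparison. Calcitriol replicate 3 had the lowest level of both genes among all 12 libraries.

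The thiolase Acat2, which joins acetyl-CoA molecules in pairs, fell by 0.59 on the log2 scale, with levels of 9.21, 8.98 and 8.90 in calcitriol livers and 9.41, 9.91 and 9.54 in HFHS livers. Mevalonate kinase, Mvk, fell by 0.61, with levels of 7.90, 7.99 and 7.92 in calcitriol livers and 8.32, 8.74 and 8.57 in HFHS livers. Phosphomevalonate kinase, Pmvk, fell by 0.76, with levels of 9.24, 8.82 and 8.78 in calcitriol livers and 9.41, 9.99 and 9.73 in HFHS livers. In each of these 3 genes the calcitriol libraries lay below all HFHS libraries. The start of Mvk lies 209 bases from that of Mmab, an enzyme of cobalamin metabolism transcribed in the other direction, whose log2 difference was -0.49 (adjusted p = 0.0847). Fdps, which makes farnesyl pyrophosphate, had levels of 7.35, 7.36 and 7.30 in calcitriol livers and 8.01, 8.50 and 8.28 in HFHS livers, a log2 difference of -0.93 ± 0.15 (adjusted p = 0.021).

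The other 2 genes of this stretch did not pass. Idi1, the isomerase of isopentenyl pyrophosphate, had a log2 difference of -0.25 (adjusted p = 0.225) at a low level of 4.36 to 4.88 over the calcitriol and HFHS libraries. Ggps1, which leads from farnesyl pyrophosphate to protein prenylation and not to sterols, had a log2 difference of 0.11 (adjusted p = 0.537). Reads of several of these genes may be shared with copies. In windows of 50 bases, 86.4% of the Fdps transcript, 45.9% of Acat2, 30.5% of Idi1, 13.6% of Hmgcs1 and 11.8% of Ggps1 also occur in transcripts of other annotated genes, pseudogenes and antisense transcripts included. How the authors counted such reads is not given in the sources used here, so the values of these genes are uncertain to that extent.

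From farnesyl pyrophosphate to lanosterol, 2 of 3 enzymes fell. Lss, lanosterol synthase, stood at 9.82, 9.90 and 9.61 in calcitriol livers and at 10.39, 10.73 and 10.65 in HFHS livers, and its log2 difference of -0.81 ± 0.12 had the smallest p of the 34 genes (adjusted p = 0.0127). Squalene synthase, Fdft1, fell by 0.67, with levels of 9.92, 9.93 and 9.59 in calcitriol livers and 10.25, 10.65 and 10.55 in HFHS livers. Squalene epoxidase, Sqle, had a log2 difference of -0.85 that missed the threshold (adjusted p = 0.0523), although its calcitriol levels of 9.67, 9.91 and 9.75 lay below its HFHS levels of 10.37, 10.81 and 10.70. The Fdft1 transcript shares 30.7% of its windows with other genes, mostly the neighbouring Ctsb.

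Of the 8 enzymes that turn lanosterol into cholesterol, 4 fell. Dhcr7, the reductase of the last step to cholesterol, had levels of 10.38, 10.12 and 10.19 in calcitriol livers and 10.83, 11.19 and 10.76 in HFHS livers, a log2 difference of -0.70 ± 0.11 (adjusted p = 0.0205). The lanosterol demethylase Cyp51 fell by 0.76, with levels of 10.84, 11.03 and 10.84 in calcitriol livers and 11.48, 11.80 and 11.71 in HFHS livers. The sterol dehydrogenase Nsdhl fell by 0.66, with levels of 10.24, 9.93 and 9.86 in calcitriol livers and 10.43, 10.91 and 10.65 in HFHS livers. In all 3 genes the calcitriol and HFHS libraries did not overlap. The desaturase Sc5d fell by 0.65, with levels of 12.55, 12.50 and 12.23 in calcitriol livers and 12.99, 13.32 and 12.94 in HFHS livers. The other 4 did not pass, namely the methylsterol oxidase Msmo1 (-0.75, adjusted p = 0.0712), the ketoreductase Hsd17b7 (-0.44, adjusted p = 0.159), the sterol reductase Tm7sf2 (-0.21, adjusted p = 0.521) and the sterol isomerase Ebp (0.11, adjusted p = 0.689).

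The number of calls in this comparison rested on single libraries. It was 0 without calcitriol replicate 2 or 3, and 0 when only the 6 libraries compared entered the model. In these fits 0.0317%, 0.111% and 0% of all tested genes were called, so calls were lost among all genes too. Leaving out calcitriol replicate 1 gave 7 calls, where 0.934% of all tested genes were called. Among HFHS libraries, the count was 7 without replicate 1, 3 without replicate 3 and 15 without replicate 2, where 0.19%, 0.46% and 17.3% of all tested genes were called. Libraries outside the comparison share in the estimate of the spread, and the count was 7 without curcumin replicate 2, 5 without curcumin replicate 3 and 6 without CNT replicate 2. The share of all tested genes called was then 0.538%, 0.57% and 0.626%. With HFHS replicate 2 as the sole HFHS library, only Dhcr7 passed. The median of the 19 enzymes was between -0.77 and -0.57 whichever library was left out. The sum of 4 endothelial markers was 11.62 to 11.73 in the calcitriol libraries and 11.00 to 11.61 in the HFHS libraries. That of 5 Kupffer cell markers was 12.73 to 13.14 in the calcitriol libraries and 12.22 to 12.86 in the HFHS libraries. Their part in the result was not tested.

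**Figure D2:**
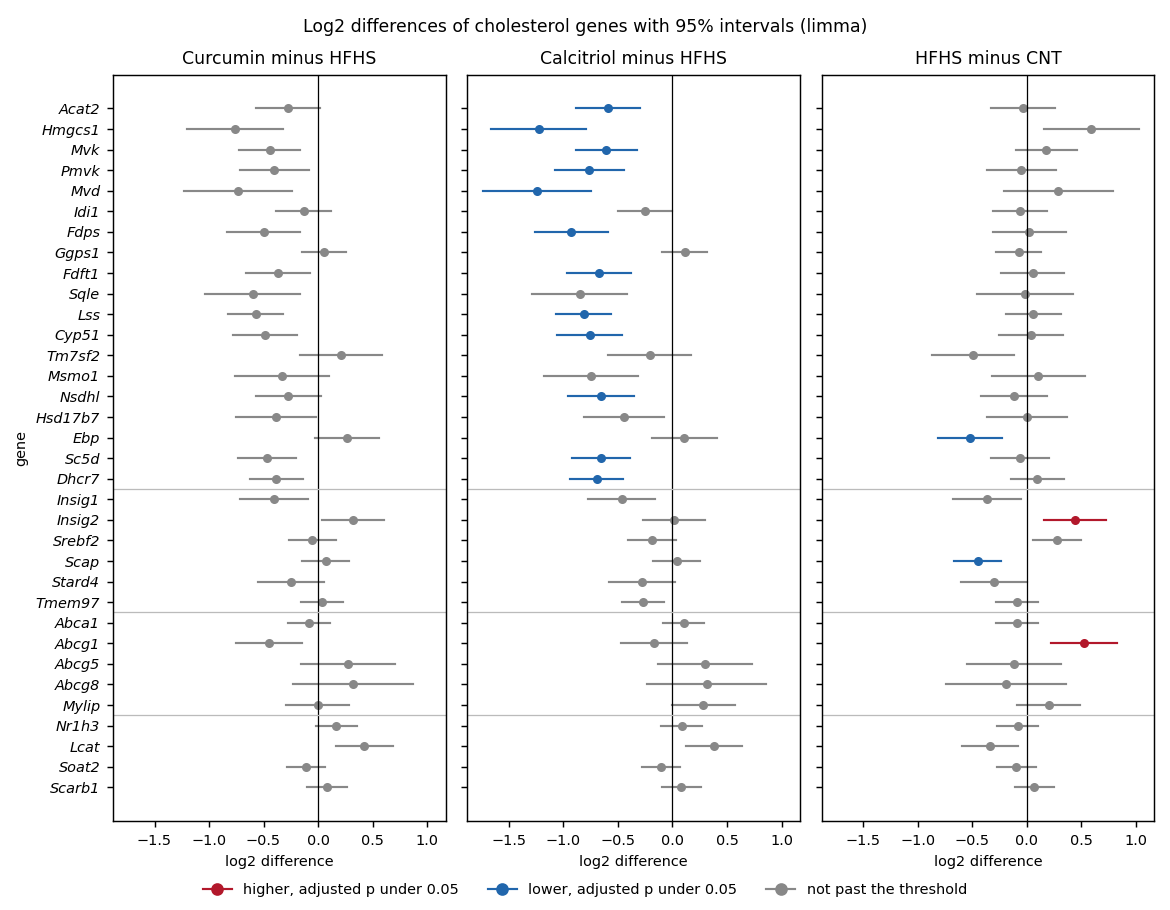
Points are log2 differences of the 34 genes for curcumin minus HFHS (left), calcitriol minus HFHS (middle) and HFHS minus CNT (right), with bars for 95% confidence intervals from limma; blue and red mark an adjusted p under 0.05. In the middle panel 12 synthesis enzymes are blue, in the left panel 0 genes are coloured, and in the right panel 2 genes are blue and 2 red.

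Promoters of the 3 synthesis enzymes with the smallest p-values, of the LXR target Mylip and of Srebf2, the SREBP2 gene itself, are shown because 12 synthesis enzymes fell with calcitriol and their promoters could be searched for the sequences bound by SREBP2 and its usual partner NF-Y. RefSeq promoters (GRCm38.p6, from 250 bases before to 50 bases after the annotated start) were at hand for 27 of the 34 genes. The motifs, searched on both strands, were TCACNCCAC of the sterol regulatory element type, CCAAT of the NF-Y box type, and the LXR-type direct repeat. They do not overlap in the windows shown. Each sequence runs 5′ to 3′ along its gene, with motifs in capitals, and ATTGG is CCAAT on the other strand. Lss lies at chr10:76531355-76531654, Hmgcs1 at chr13:119690101-119690400, Dhcr7 at chr7:143829964-143830263, Mylip at chr13:45389492-45389791 and Srebf2 at chr15:82147019-82147318, all on the plus strand. The Dhcr7 window is the 1 of 3 annotated starts that holds a motif.
Lss: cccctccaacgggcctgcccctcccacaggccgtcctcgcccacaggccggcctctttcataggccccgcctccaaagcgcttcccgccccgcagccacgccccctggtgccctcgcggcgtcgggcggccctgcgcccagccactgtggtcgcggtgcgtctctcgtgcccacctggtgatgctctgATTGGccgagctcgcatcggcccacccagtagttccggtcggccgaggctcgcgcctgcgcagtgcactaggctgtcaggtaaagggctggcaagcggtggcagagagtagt
Hmgcs1: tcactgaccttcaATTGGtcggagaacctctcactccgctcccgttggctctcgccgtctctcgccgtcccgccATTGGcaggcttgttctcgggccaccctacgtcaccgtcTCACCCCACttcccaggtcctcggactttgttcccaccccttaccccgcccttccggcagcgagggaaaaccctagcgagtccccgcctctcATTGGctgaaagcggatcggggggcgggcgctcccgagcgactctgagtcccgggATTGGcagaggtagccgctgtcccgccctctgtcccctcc
Dhcr7: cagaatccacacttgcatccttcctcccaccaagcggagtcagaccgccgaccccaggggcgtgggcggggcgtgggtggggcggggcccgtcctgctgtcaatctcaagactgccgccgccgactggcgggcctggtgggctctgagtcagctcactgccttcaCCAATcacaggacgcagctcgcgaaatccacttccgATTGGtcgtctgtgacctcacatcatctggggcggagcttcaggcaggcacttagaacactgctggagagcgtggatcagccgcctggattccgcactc
Mylip: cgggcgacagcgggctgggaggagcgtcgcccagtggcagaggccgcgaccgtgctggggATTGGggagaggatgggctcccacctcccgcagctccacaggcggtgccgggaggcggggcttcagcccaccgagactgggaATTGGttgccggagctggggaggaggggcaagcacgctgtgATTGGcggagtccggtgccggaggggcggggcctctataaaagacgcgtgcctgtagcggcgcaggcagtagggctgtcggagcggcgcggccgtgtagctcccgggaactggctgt
Srebf2: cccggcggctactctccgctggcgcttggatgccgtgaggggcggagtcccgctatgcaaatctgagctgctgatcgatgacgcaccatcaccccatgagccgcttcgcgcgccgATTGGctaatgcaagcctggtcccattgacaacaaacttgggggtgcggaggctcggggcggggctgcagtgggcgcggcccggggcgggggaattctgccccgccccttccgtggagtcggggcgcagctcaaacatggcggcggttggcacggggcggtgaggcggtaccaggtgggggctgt

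CCAAT was found in promoters of 15 of 16 synthesis enzymes (93.8%), against 4210 of 9830 other tested genes (42.8%) and 41.1% of all genes in the RefSeq table. It was also found in 3 of 4 LXR target genes with a promoter, Mylip among them with 3 copies. TCACNCCAC was found in 1 of the 16, Hmgcs1, where TCACCCCAC starts at -137 from the start of the gene, against 1.44% of all genes. In Dhcr7 the 2 CCAAT copies begin at -85 and -49. The LXR-type direct repeat was found in 0 of the 27 genes and in 0.0518% of all genes. A match describes the letters in these windows only. Only fixed patterns were searched, so the lack of a match does not show that a promoter lacks a site for SREBP2 or LXR. Abcg1 is not shown because no promoter was at hand for it.

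Curcumin liposome livers were compared with the same untreated HFHS livers. No gene of the 34 passed the adjusted threshold, where 38 of all tested genes (0.301%) did. At an unadjusted p under 0.05, 14 of the 34 genes were lower and 2 higher, against 13.3% and 11.5% of all tested genes. Of the 19 synthesis enzymes, 16 had log2 differences below 0, against 50.8% of all tested genes, with a median of -0.39, and in 9 of them the curcumin and HFHS libraries did not overlap, against 11.6% of all tested genes that were lower without overlap.

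The smallest p-values were those of Lss, Sc5d and Hmgcs1. Lss had levels of 9.79, 10.13 and 10.13 in curcumin livers, all below the HFHS levels given above, and a log2 difference of -0.57 ± 0.12 (adjusted p = 0.051). Sc5d had levels of 12.57, 12.67 and 12.60 in curcumin livers and a log2 difference of -0.47 ± 0.12 (adjusted p = 0.0741). Hmgcs1 had levels of 11.59, 12.31 and 12.22 in curcumin livers and a log2 difference of -0.76 ± 0.20 (adjusted p = 0.0766). Curcumin replicate 1 was the lowest of the 3 curcumin libraries in each of these genes. Its mean deviation over the 19 enzymes was -0.29, against 0.04 and -0.06 in curcumin replicates 2 and 3.

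Deviations of curcumin and HFHS libraries of the same replicate number had correlations of 0.16, 0.321 and 0.162. Libraries of different numbers were not correlated for reference, so these values do not show pairing. The fit with the replicate number as a block is given as an alternative only. It assumes the same effect of a number in all 4 groups. With the block, 6 synthesis enzymes fell (Hmgcs1, Mvk, Sqle, Lss, Cyp51 and Sc5d), where 1.92% of all tested genes were called. Without HFHS replicate 2, 6 of the 34 genes passed in the fit without the block, 4 of them lower and 2 higher, but 25.4% of all tested genes were then called, a larger share than among the 34.

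Both liposome groups together were set against HFHS, which uses 6 treated libraries and the same 3 HFHS libraries as both comparisons above. Here 11 synthesis enzymes fell and Lcat rose, where 4.05% of all tested genes were called. The enzymes were Hmgcs1, Mvk, Pmvk, Mvd, Fdps, Fdft1, Sqle, Lss, Cyp51, Sc5d and Dhcr7. Lss had the smallest p, with a log2 difference of -0.69 ± 0.10 (adjusted p = 0.0139), and Sqle, at -0.72 (adjusted p = 0.0436), passed here but in neither liposome group alone. Curcumin livers had Sqle levels of 9.66, 10.28 and 10.16, so all 6 treated libraries lay below the 3 HFHS libraries. The count was 0 without HFHS replicates 1 and 3 together. With single libraries left out it was 1 without HFHS replicate 3, 2 without calcitriol replicate 2, 3 without HFHS replicate 1 or curcumin replicate 1 or 3, 4 without calcitriol replicate 3 and 5 without curcumin replicate 2. In these fits with single libraries left out, between 0.127% and 0.784% of all tested genes were called.

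Lcat encodes the plasma enzyme that esterifies cholesterol on HDL. Its levels were 13.29, 13.36 and 13.19 in curcumin livers, 13.17, 13.26 and 13.27 in calcitriol livers and 12.68, 13.12 and 12.76 in HFHS livers. All 6 treated libraries lay above the 3 HFHS libraries, and the log2 difference of the 6 was 0.40 ± 0.10 (adjusted p = 0.0485). CNT livers had 13.16, 13.12 and 13.30, so the low values were those of HFHS replicates 1 and 3, the libraries with high macrophage and matrix marker sums; the part of those sums in the result was not tested. Without these 2 libraries the difference was 0.14 (adjusted p = 0.868).

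Curcumin and calcitriol livers were compared directly, a comparison that uses no untreated library for its means. None of the 34 genes passed in limma, where 0% of all tested genes did, and at an unadjusted p under 0.05 there were 11 of the 34 genes, all higher with curcumin, against 7.49% of all tested genes higher and 14.8% in either direction. Synthesis enzymes had a median log2 difference of 0.31, with 1 of 19 below 0, against 49.1% of all tested genes. The median was 0.19 without curcumin replicate 2. All 4 endothelial markers were lower in every curcumin than in every calcitriol library, against 13.8% of all tested genes. Their sums were 10.97 to 11.17 with curcumin and 11.62 to 11.73 with calcitriol, and their part in the enzyme differences was not tested. Tmem97, an endoplasmic reticulum protein tied to lysosomal cholesterol transport, had the smallest p, with levels of 9.23, 9.49 and 9.28 in curcumin livers and 9.09, 9.02 and 8.99 in calcitriol livers. Its log2 difference was 0.30 (95% interval 0.11 to 0.50, adjusted p = 0.222). Fdps had 7.39, 7.93 and 7.96 in curcumin livers, above the calcitriol levels given before, with a difference of 0.43 (95% interval 0.10 to 0.76, adjusted p = 0.267). For Dhcr7 the curcumin levels were 10.47, 10.67 and 10.50, also without overlap, with a difference of 0.31 (95% interval 0.07 to 0.56, adjusted p = 0.267). Missing the threshold does not show that the 2 treatments left these genes at the same level.

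Untreated HFHS livers were compared with CNT livers. Ebp and Scap were lower and Insig2 and Abcg1 higher in HFHS, 4 of 34 genes or 11.8%, where 11.9% of all tested genes were called, so the share is near the background. Of the 19 synthesis enzymes only Ebp passed, and their median log2 difference was -0.00, with -0.10 without HFHS replicate 2 and 0.11 without HFHS replicate 1. Ebp had levels of 11.62, 12.08 and 11.47 in HFHS livers and 12.19, 12.22 and 12.32 in CNT livers, a difference of -0.52 ± 0.14 (adjusted p = 0.033). Scap had levels of 10.66, 10.85 and 10.65 in HFHS livers and 11.27, 11.31 and 10.93 in CNT livers, a difference of -0.45 ± 0.10 (adjusted p = 0.0212). Neither gene's groups overlapped. Without HFHS replicates 1 and 3, those with the high macrophage and matrix sums, the differences were -0.16 for Ebp (adjusted p = 0.665) and -0.32 for Scap (adjusted p = 0.396); the part of those sums was not tested. The Scap transcript shares 13.1% of its windows with an annotated antisense transcript.

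Insig2, one of the proteins that retain Scap, had levels of 10.95, 10.86 and 10.33 in HFHS livers and 10.37, 10.18 and 10.26 in CNT livers. The groups overlapped through HFHS replicate 3, and the difference was 0.44 ± 0.13 (adjusted p = 0.047). The 4 calls became 0 when HFHS replicate 1, CNT replicate 1 or CNT replicate 2 was left out, and with only the 6 libraries compared in the model. In those fits 1.71%, 4.24%, 1.13% and 0.103% of all tested genes were called. The 4 calls became 1 without HFHS replicate 3 or CNT replicate 3, where 2.14% and 10.8% of all tested genes were called. They became 2 without curcumin replicate 3 or calcitriol replicate 2, where 8.27% and 7.17% were. Hmgcs1 was higher in all HFHS than in all CNT libraries (CNT 11.96, 12.40 and 12.28), at 0.59 ± 0.20 (adjusted p = 0.0709).

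Each liposome group was also set against CNT, with CNT libraries shared between these comparisons and the last one. Calcitriol livers had 16 of the 34 genes lower and 0 higher than CNT, where 4.04% of all tested genes were called and 2.27% were called lower. Among them were 12 synthesis enzymes, Acat2, Pmvk, Mvd, Fdps, Fdft1, Sqle, Lss, Cyp51, Tm7sf2, Nsdhl, Sc5d and Dhcr7. The other 4 were Insig1, Scap, Stard4 and Tmem97. The CNT levels of Lss were 10.46, 10.57 and 10.56, and its difference was -0.75 ± 0.12 (adjusted p = 0.00806), which passed under all 17 alternative settings. In 18 of the 19 enzymes the calcitriol libraries lay below all CNT libraries, against 17.4% of all tested genes. The count was 1 without calcitriol replicate 3, 2 without CNT replicate 2, 3 without calcitriol replicate 2, 9 without calcitriol replicate 1 and 10 without curcumin replicate 3 or CNT replicate 3. The share of all tested genes called was then, in that order, 0.578%, 0.673%, 0.609%, 1.35%, 2.18% and 4.81%. Deviations of calcitriol and CNT libraries of the same replicate number had correlations of 0.205, 0.253 and 0.372, which likewise do not show pairing. With the replicate number as a block, 20 of the 34 genes were lower and 0 higher, where 4.96% of all tested genes were called.

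The other enzymes called in that comparison had these CNT levels, to be set against the calcitriol levels above. Early in the pathway, Acat2 stood at 9.62, 9.55 and 9.81 in CNT livers, for a difference of -0.63. Pmvk stood at 9.79, 9.82 and 9.68, for a difference of -0.82. Mvd stood at 7.73, 8.14 and 8.57, for a difference of -0.95. Fdps stood at 8.12, 8.20 and 8.40, for a difference of -0.90. Fdft1 stood at 10.28, 10.46 and 10.55, for a difference of -0.62. Sqle stood at 10.27, 10.64 and 11.03, for a difference of -0.87, and CNT replicate 3 was its highest library of all 12. Later in the pathway, Cyp51 stood at 11.37, 11.72 and 11.79, for a difference of -0.72. Nsdhl stood at 10.59, 10.79 and 10.97, for a difference of -0.77. Sc5d stood at 13.13, 13.25 and 13.05, for a difference of -0.72 (adjusted p = 0.0129), the second smallest p after Lss. Dhcr7 stood at 10.76, 10.83 and 10.91, for a difference of -0.60. Tm7sf2 had levels of 10.51, 10.07 and 9.92 in calcitriol livers and 10.92, 10.93 and 10.76 in CNT livers, for a difference of -0.71 (adjusted p = 0.0443), and its HFHS levels of 10.03, 10.75 and 10.35 spread over most of that range. In all 11 the calcitriol libraries lay below the CNT libraries. The endothelial marker sum was higher in the calcitriol than in the CNT libraries, where it was 10.93 to 11.55, and its part was not tested.

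In curcumin livers 4 of the 34 genes differed from CNT, where 3.51% of all tested genes did. Lss fell by 0.51 (adjusted p = 0.0339) and Sc5d by 0.53 (adjusted p = 0.0353). Insig1 fell and Insig2 rose, as given next. All 19 synthesis enzymes had log2 differences below 0, with a median of -0.32, where 50.5% of all tested genes were below 0. With the replicate block, 8 of the 34 genes passed, where 3.29% of all tested genes did. Curcumin and CNT libraries of the same number did not deviate together, with correlations of -0.083, -0.023 and -0.383. The pairs of these groups therefore give no ground for the block. The count was 0 without CNT replicate 2, where 0.792% of all tested genes were called. It was 1 without any single curcumin library, where 0.744% to 1.06% were, and 2 without CNT replicate 1, where 1.27% were. It was 7 without HFHS replicate 2 or CNT replicate 3, where 5.9% and 7.5% were.

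The sterol sensing genes did not share 1 direction. Insig1, which is itself switched on by SREBP2, had levels of 10.94, 11.28 and 11.17 in curcumin livers, 11.01, 11.30 and 10.91 in calcitriol livers, 11.44, 11.84 and 11.32 in HFHS livers and 11.84, 11.96 and 11.90 in CNT livers. All 6 treated libraries lay below all 6 untreated ones. Its log2 difference from CNT was -0.77 ± 0.14 with curcumin (adjusted p = 0.0152) and -0.83 ± 0.14 with calcitriol (adjusted p = 0.0129), while those from HFHS, -0.41 and -0.47, did not pass (adjusted p = 0.124 and 0.0983). Insig2 had levels of 10.96, 11.11 and 11.03 in curcumin livers and 10.73, 10.69 and 10.76 in calcitriol livers. It was higher with curcumin than in CNT by 0.76 ± 0.13 (adjusted p = 0.0105), and with calcitriol by 0.46 (adjusted p = 0.0685).

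Relative to HFHS, 0 of the 6 sterol sensing and transport genes passed in either liposome group. This is near the share of all tested genes, 0.301% with curcumin and 2.21% with calcitriol. Scap had levels of 10.74, 10.79 and 10.83 in curcumin livers and 10.76, 10.80 and 10.70 in calcitriol livers, within the range of the HFHS levels and below all CNT libraries. Its difference from CNT was -0.41 with calcitriol (adjusted p = 0.0429) and -0.38 with curcumin (adjusted p = 0.0572). Stard4, a carrier of cholesterol between membranes, had levels of 10.69, 10.97 and 10.97 in curcumin livers, 10.84, 11.04 and 10.65 in calcitriol livers, 10.89, 11.28 and 11.21 in HFHS livers and 11.35, 11.64 and 11.29 in CNT livers. It fell by 0.58 with calcitriol relative to CNT (adjusted p = 0.041). For Tmem97 the calcitriol levels given above compared with 9.23, 9.41 and 9.27 in HFHS and 9.23, 9.45 and 9.50 in CNT livers. Its difference of -0.36 from CNT passed (adjusted p = 0.0443), while that of -0.27 from HFHS did not (adjusted p = 0.117). Srebf2, which encodes SREBP2 itself, had log2 differences from HFHS of -0.05 with curcumin and -0.19 with calcitriol (adjusted p = 0.781 and 0.299).

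**Figure D3:**
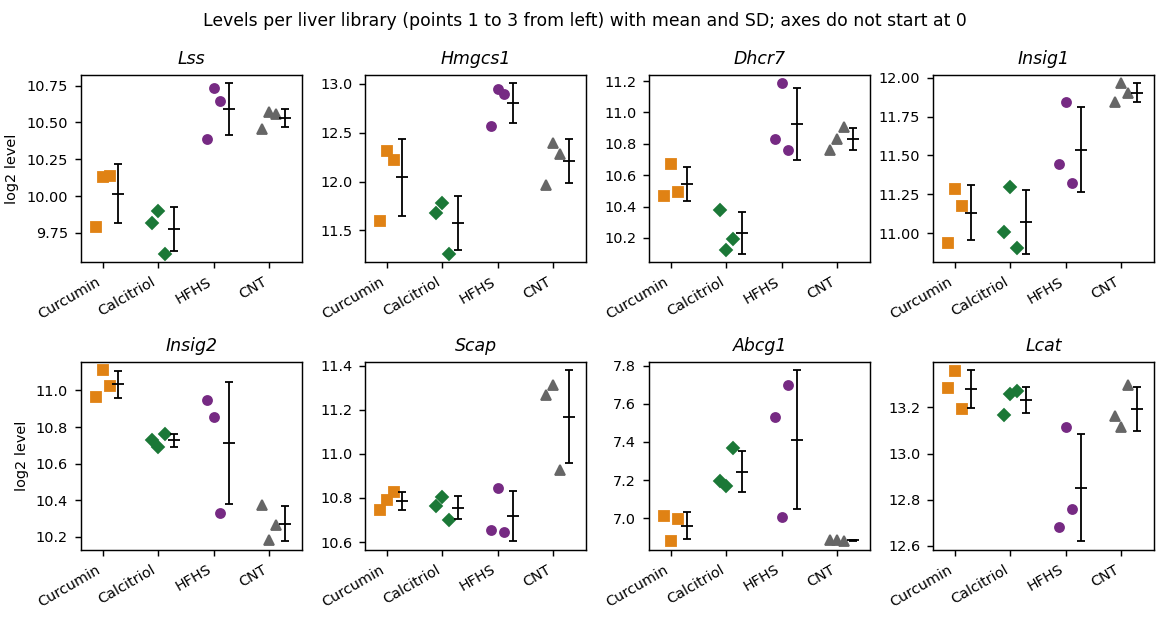
Log2 levels of 8 genes in every library (points, replicates 1 to 3 from left) with the group mean and SD (bars); the axes do not start at 0. The calcitriol mean is the lowest of the 4 for Lss, Hmgcs1 and Dhcr7, all treated points lie below all untreated points for Insig1, and 2 of 3 HFHS points stand apart for Abcg1 and Lcat.

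Of the 5 LXR target genes, 0 passed in either liposome group relative to HFHS. Of all tested genes, 0.301% passed with curcumin and 2.21% with calcitriol, so 0 of 5 is near that share. Their median log2 difference was -0.00 with curcumin and 0.28 with calcitriol. Single libraries moved both. The calcitriol median was 0.019 without HFHS replicate 1 and 0.42 without HFHS replicate 3, and the curcumin median ran from -0.08 without HFHS replicate 2 to 0.13 without HFHS replicate 3. Abcg1, which loads cholesterol onto HDL, had levels of 7.01, 6.88 and 6.99 in curcumin livers, 7.20, 7.17 and 7.37 in calcitriol livers, 7.53, 7.01 and 7.70 in HFHS livers and 6.89, 6.89 and 6.88 in CNT livers. It was higher in HFHS than in CNT by 0.53 ± 0.14 (adjusted p = 0.0345), without overlap. The high libraries were HFHS replicates 1 and 3, those with the high macrophage marker sums, and without them the difference was 0.12 (adjusted p = 0.754); the part of macrophage RNA was not tested.

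Mylip had levels of 7.86, 7.99 and 7.83 in calcitriol livers, 7.56, 7.58 and 7.68 in curcumin livers, 7.49, 7.46 and 7.89 in HFHS livers and 7.68, 7.41 and 7.15 in CNT livers. Its difference with calcitriol was 0.28 from HFHS (adjusted p = 0.244) and 0.48 from CNT (adjusted p = 0.0632). Abca1, which starts HDL formation, lay between 11.40 and 11.71 in all 12 libraries and passed in 0 of the 7 comparisons. Abcg5 and Abcg8, the partners of the transporter that secretes sterols into bile, were low in 1 library. HFHS replicate 1 had 10.05 for Abcg5 and 10.16 for Abcg8, against 10.92 and 10.87 for Abcg5 and 11.16 and 11.22 for Abcg8 in HFHS replicates 2 and 3. Their differences from HFHS were 0.28 and 0.32 with curcumin and 0.30 and 0.31 with calcitriol, and none passed (adjusted p between 0.397 and 0.512). These genes overlap on opposite strands (chr17:84658234-84683011 for Abcg5 and chr17:84676302-84700333 for Abcg8), and whether counting used strand is not given in the sources used here, so their values cannot be told apart with certainty.

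Of the other members, Nr1h3, which encodes LXR alpha, Soat2, which esterifies cholesterol inside hepatocytes, and Scarb1, the HDL receptor, passed in 0 of the 7 comparisons. Nr1h3 lay between 10.45 and 10.76, Soat2 between 8.99 and 9.42 and Scarb1 between 11.36 and 11.68 over the 12 libraries.

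Synthesis genes were then set against LXR target genes. For each library the mean deviation from the gene means over 12 libraries was taken for both lists. Synthesis deviations were -0.29, 0.04 and -0.06 in curcumin livers, -0.32, -0.34 and -0.50 in calcitriol livers, 0.03, 0.47 and 0.23 in HFHS livers and 0.12, 0.30 and 0.31 in CNT livers. LXR deviations were -0.02, -0.05 and 0.02 in curcumin livers, 0.08, 0.23 and 0.10 in calcitriol livers, -0.30, -0.02 and 0.23 in HFHS livers and 0.02, -0.01 and -0.29 in CNT livers. The calcitriol libraries were the 3 lowest for synthesis and all lay above 0 for LXR targets. The LXR deviations of the 3 HFHS libraries alone spread almost as far as those of all 12. No p is given for these means, since they rest on genes chosen by name.

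**Figure D4:**
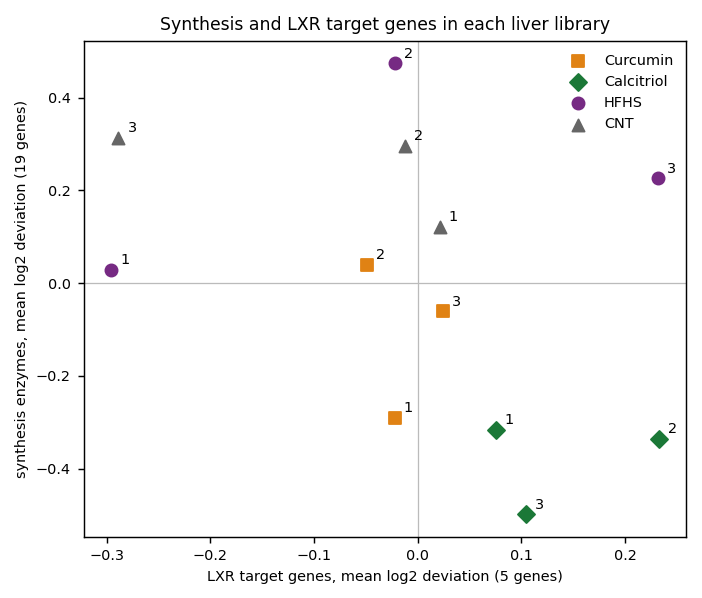
Each point is a liver library, with the mean log2 deviation of the 5 LXR target genes on the horizontal axis and that of the 19 synthesis enzymes on the vertical axis; numbers are replicates. The 3 calcitriol points lie lowest, between -0.50 and -0.32 on the vertical axis, while the HFHS points reach from -0.30 to 0.23 on the horizontal axis.

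Across the 4 groups, calcitriol had the lowest mean in 17 of the 19 enzymes, and HFHS and CNT each had the highest mean in 9. Every calcitriol library lay below all 6 untreated libraries in 15 of the 19 enzymes, and all 6 treated libraries lay below all 6 untreated ones in 4. Of all tested genes, 11.8% had every calcitriol library below every HFHS library, so the share for the first count is at most that. For the second it is at most 4.85%, the share with all treated libraries below every HFHS library. Shares of all tested genes were not taken for the lowest and highest means or libraries. Calcitriol replicate 3 was the lowest of the 12 libraries for 13 enzymes and HFHS replicate 2 the highest for 14. Calcitriol replicate 3 also had the lowest hepatocyte marker sum, 20.04, and the highest Kupffer cell sum, 13.14. That hepatocyte sum is mostly Alb. As a mean deviation over the 6 hepatocyte markers, HFHS replicates 1 and 3 were lower (-0.43 and -0.30) than calcitriol replicate 3 (-0.20). The part of these markers in the enzyme values was not tested.

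Neighbouring pathways were described from lists of other genes. Against HFHS, 0.301% of all tested genes were called with curcumin, 2.21% with calcitriol and 4.05% with both together. A count of 0 in a short list is near those shares. Against CNT, 3.51% were called with curcumin, 4.04% with calcitriol and 11.9% in HFHS. Of 10 genes on branches of the mevalonate pathway, 0 were called against HFHS in either liposome group, and against CNT 1 was lower with calcitriol, the acetoacetate-using synthetase Aacs (-1.38 ± 0.26, adjusted p = 0.0202). Coq2, of ubiquinone synthesis, had 0.20 with curcumin against CNT (adjusted p = 0.171). Of 12 other genes of sterol sensing and turnover, 0 were called against HFHS in either liposome group. In HFHS against CNT, the ubiquitin ligase gene Rnf139 (-0.24) and the SREBP1 gene Srebf1 (-0.59, adjusted p = 0.048) were lower, and the NF-Y subunit gene Nfya was higher (0.36, adjusted p = 0.0315). The ligase gene Rnf145, an LXR target, fell by 0.75 with curcumin against CNT (adjusted p = 0.0205).

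Of 7 further LXR genes, 0 were called against HFHS in either liposome group. Smpdl3a was higher with curcumin than in CNT (0.31, adjusted p = 0.0267), and Arl4c was higher in HFHS than in CNT (0.42, adjusted p = 0.0472), while Abca7 had 0.28 with calcitriol against CNT (adjusted p = 0.131). Of 10 genes that handle sterols inside the cell, the sterol-binding protein gene Osbp was lower in both liposome groups together than in HFHS (-0.22, adjusted p = 0.048). Soat1, the cholesterol esterifying enzyme of macrophages (0.56, adjusted p = 0.0345), and Gramd1b (0.51, adjusted p = 0.0445) were higher in HFHS than in CNT, again with the high macrophage sums of HFHS replicates 1 and 3 beside them. Gramd1c had -0.35 for curcumin minus calcitriol (adjusted p = 0.213).

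Of 4 tested enzymes that cut or hydroxylate the cholesterol side chain or ring on the way to bile acids and oxysterols, Cyp27a1 was lower in HFHS than in CNT (-0.71 ± 0.12, adjusted p = 0.0104) and lower with calcitriol than in CNT (-0.47, adjusted p = 0.0462). Cyp8b1 had 1.57 for curcumin minus calcitriol (adjusted p = 0.244), and Cyp7b1 had -0.55 in HFHS against CNT (adjusted p = 0.0671). Fatty acid synthesis, driven by the related factor SREBP1, had the most calls of these neighbouring lists. With calcitriol, 1 of 10 was lower than in HFHS, where 1.23% of all tested genes were called lower. It was the fatty acid synthase Fasn (-0.92 ± 0.17, adjusted p = 0.0297), with levels of 11.95, 11.91 and 11.59 in calcitriol livers and 12.48, 12.96 and 12.77 in HFHS livers. Against CNT, 6 of 10 were lower with calcitriol, namely Fasn (-1.75), Elovl6 (-1.34), Acaca (-1.02), Acly (-1.09), Scd1 (-2.67) and Me1 (-0.93). With curcumin 4 of 10 were lower, namely Fasn (-1.50), Elovl6 (-1.21), Acaca (-0.91) and Acly (-0.88). Of all tested genes, 2.27% were called lower with calcitriol and 1.91% with curcumin against CNT. In HFHS against CNT, 3 of 10 were lower, Fasn (-0.83), Elovl6 (-0.78) and Acaca (-0.58), where 1 of the 19 cholesterol synthesis enzymes was. Of all tested genes, 5.36% were called lower in that comparison.

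Sterol synthesis genes follow the daily rhythm of feeding in mouse liver. Of 10 tested clock genes, 2 differed between both liposome groups together and HFHS, where 4.05% of all tested genes did. In HFHS against CNT, 3 of 10 were lower, where 11.9% of all tested genes were called. Against CNT, 2 of 10 were lower with curcumin and 2 of 10 with calcitriol, where 3.51% and 4.04% were called. Nr1d1, a clock repressor, had levels of 9.22, 9.44 and 9.47 in curcumin livers, 9.29, 9.75 and 9.79 in calcitriol livers, 10.28, 10.15 and 10.41 in HFHS livers and 10.70, 10.80 and 10.07 in CNT livers. In both liposome groups together it was lower than in HFHS by a log2 difference of -0.79 ± 0.16 (adjusted p = 0.0301), and Cry1, another clock repressor, was higher by 0.79 ± 0.16 (adjusted p = 0.0311). The hours at which livers were taken are not given in the sources used here, and the part of the clock in the enzyme results was not tested.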

How the data were processed

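RNA of whole livers was sequenced in 12 libraries. The authors deposited 1 table per library of 45792 gene identifiers with log2 values, and 23411 identifiers are at exactly 0 in all 12 libraries. The submitters' processing notes list STAR 2.4.0d, DESeq2 1.8.1 and GRCm38 but not what each was used for. The transformation is not given in the sources used here. The values run from -3.63 to 20.7 and have the pattern of a regularized log2, so differences of low genes are probably too small. Counts were not used, so depth and counting error are unknown.

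Symbols came from GENCODE M21 (GRCm38). Genes were tested where at least 3 libraries reached 3.32, the log2 of 10, with limma 3.58.1 in R 4.3.3: 4 group means over 12 libraries with 1 shared estimate of the spread, empirical Bayes with trend and robust estimation, two-sided, Benjamini-Hochberg over 12637 genes, threshold 0.05. Standard errors are those of the model, and no further scaling was applied. Groups came from the sample titles. The comparisons share HFHS or CNT libraries. The members, lists, tests and alternatives were chosen with earlier results of these data known. Values in every library are given for members called in any comparison and, where none is called, for the 3 with the smallest p; of the other lists, up to 3 genes with the smallest p and any called are named. The genes shown as promoters are the 3 synthesis enzymes and 2 LXR targets with the smallest p, and Srebf2. Clock genes were named after their values were seen. Some genes that this rule would name are not reported here.

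Replicate numbers were checked by correlating the deviations of same-numbered libraries from their group means. All 3 pairs were over 0.1 for curcumin with HFHS (0.16, 0.321 and 0.162) and for calcitriol with CNT (0.205, 0.253 and 0.372), and 9 of 18 pairs over all groups were, with a range of -0.383 to 0.372. Libraries of different numbers were not correlated for reference, so these values do not show pairing. No label says what a number shares. The alternatives were another set of libraries in the fit, no filter, quantile normalization, library weights, the replicate block and libraries left out. The model was tested on simulated data.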

Additional observations from a re-analysis of the deposited data

How the results depend on the processing

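No member named above as called changed sign under the alternatives run. Medians near 0 did: those of LXR targets for HFHS minus CNT (-0.09), curcumin minus HFHS (-0.00) and, without HFHS replicate 1, both liposome groups minus HFHS (0.14, then -0.02), and that of synthesis enzymes for HFHS minus CNT (-0.00). Calls were lost under many alternatives. Counts of the 34 genes called, when each library was left out in turn, ran from 0 to 6 (curcumin minus HFHS), 0 to 15 (calcitriol minus HFHS), 1 to 14 (both liposome groups minus HFHS), 0 to 6 (HFHS minus CNT), 0 to 7 (curcumin minus CNT) and 1 to 22 (calcitriol minus CNT), and stayed at 0 for curcumin minus calcitriol. Without HFHS replicate 2, which gave the highest count in the first 4 and in both against CNT, 25.4%, 17.3%, 24.1%, 29.4%, 5.9% and 9.04% of all tested genes were called. For curcumin minus HFHS and HFHS minus CNT, 6 of 34 is a smaller share than that. The LXR median ran from 0.019 to 0.42 for calcitriol minus HFHS and from -0.15 to 0.16 for HFHS minus CNT.

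With only the groups compared in the fit, 0 genes were called for calcitriol minus HFHS and 0 for HFHS minus CNT. All tested genes called were then 0% and 0.103%. For curcumin minus CNT, 1 gene was then higher and 5 lower, where 5.16% of all tested genes were called. For calcitriol minus CNT, 2 were higher and 17 lower, where 4.66% were called. Fewer libraries estimate the spread in each of these fits, and the cause of the changes was not tested. Without a filter, 1 was called for curcumin minus HFHS, where 0.331% of all tested genes were. With quantile normalization 6 were called for curcumin minus HFHS, where 1.33% of all tested genes were, and the LXR median for HFHS minus CNT was 0.15. With library weights the counts were 15 (curcumin minus HFHS), 2 (curcumin minus calcitriol), 9 (HFHS minus CNT), 18 (curcumin minus CNT) and 27 (calcitriol minus CNT), where 27.1%, 4.57%, 37.9%, 21% and 24.7% of all tested genes were called. With the replicate block they were 6 (curcumin minus HFHS) and 8 (curcumin minus CNT), and in the 5 other comparisons the block kept the count within 1.5 times. With HFHS replicates 1 and 3 left out together, the counts were 1 (calcitriol minus HFHS), 0 (both liposome groups minus HFHS) and 1 (HFHS minus CNT). The synthesis medians were then -0.64 (curcumin minus HFHS), -0.90 (calcitriol minus HFHS), -0.78 (both liposome groups minus HFHS) and 0.22 (HFHS minus CNT), and the LXR median was 0.12 (HFHS minus CNT). The lone HFHS library is then assumed to vary like the other groups. Where not stated, the cause of a change was not tested.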
